A study of Mus musculus with 3 samples.

Results

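Nucleus-poor barcodes were droplets that gave many cytoplasmic mRNAs but hardly any Malat1, a long noncoding RNA that is kept in the nucleus, and hardly any mitochondrially encoded RNA. A barcode was taken when it had at least 200 genes, less than 1% of its unique molecular identifiers (UMIs, each marking 1 captured RNA molecule) from the 13 mitochondrial genes, less than 1000 CPM (UMIs scaled to a common library total) of Malat1, and UMIs of at most 1 of the 5 mitotic genes Cdk1, Ube2c, Birc5, Ccnb1 and Top2a. In all, 192 of 2395 barcodes were chosen, 25 in the control library and 96 and 71 in the Dox libraries. The barcodes were thus selected on measured values of these genes, which are given below as a description, with no test. They were compared with 849 reference barcodes (90, 215 and 544) that had at least 1 UMI of Epcam, an adhesion protein of epithelial cells, and 1 to 20% mitochondrial UMIs.

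A droplet protocol normally captures a whole cell, so that nuclear RNA, mitochondrial RNA and cytoplasmic mRNA arrive together. Free ribosomes in the cytosol translate mRNAs of cytosolic proteins, whereas mRNAs of secreted and membrane proteins are translated on the endoplasmic reticulum (ER), which is continuous with the nuclear envelope. Malat1 and Neat1 mark nuclear bodies, and mRNAs of splicing regulators are often held in the nucleus with unspliced introns.

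The cultures were whole cochlear explants from mice of 4 to 6 weeks that carried rtTA, tet-on-Myc and tet-on-NICD. rtTA is a transcription factor that binds DNA when doxycycline (Dox) is present, and it then drives Myc and the Notch intracellular domain (NICD). Explants of all 3 libraries carried these alleles. Dox was given at 2 µg/ml over 4 days and control explants received water. Each library pooled 4 cultures, which gave 1 library for the control and 2 for Dox, with no library of Dox without the transgenes, so the drug and the transgenes cannot be told apart. The labels do not name the promoter that drives rtTA. The sensory epithelium was dissected and trypsinised before capture.

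Libraries shared some cell barcodes. Of the barcode sequences, 125 occurred in 2 or 3 libraries, and the deepest copy held between 59.5 and 386 times the UMIs of the shallowest (median 161). Among the nucleus-poor barcodes 1 was such a shallower copy, in the control library, while 86 of the 849 reference barcodes were (42 control, 16 and 28 Dox). The comparisons were therefore repeated without the shallower copies and without all copies.

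By the rule, nuclear and mitochondrial RNA were low in every library. Malat1 was at 0 UMIs in 141 of the 192 barcodes and mitochondrial UMIs were at 0 in 49. Summed over the nucleus-poor barcodes, Malat1 stood at 47.8 CPM in the control library and at 66.4 and 100.2 CPM in the Dox libraries, against 31393, 13599 and 11545 CPM in the reference. The mitochondrial share was 0.156%, 0.378% and 0.286%, against 3.96%, 5.14% and 4.49%. The barcode nearest the mitochondrial threshold inside the rule had 0.974% and the nearest outside 1.002%, and for Malat1 these were 984 and 1008 CPM. Between 0.5 and 1% mitochondrial UMIs lay 47 of the nucleus-poor barcodes, and 41 barcodes otherwise meeting the rule lay between 1 and 2%.

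**Figure D1:**
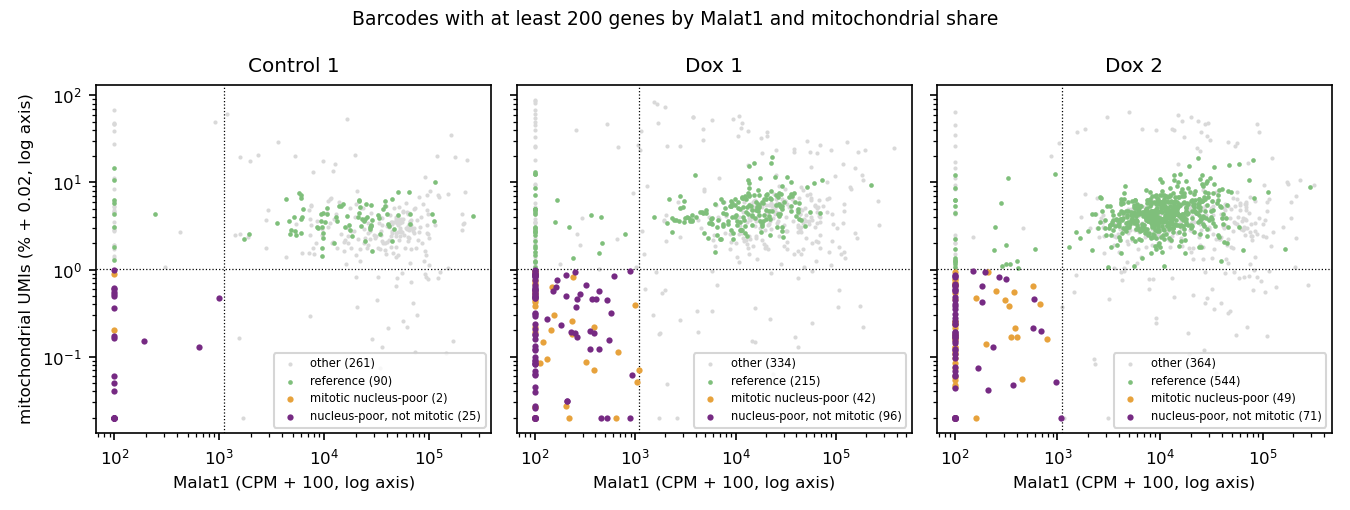
Each point is 1 barcode with at least 200 genes, placed by Malat1 (CPM + 100, log axis) and mitochondrial UMIs (percent + 0.02, log axis), in 1 panel per library; dotted lines mark the thresholds of 1000 CPM and 1%. The 25, 96 and 71 nucleus-poor barcodes fill the lower left corner, and the Epcam-positive reference lies mainly above 1% and to the right of 1000 CPM.

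Nucleus-poor barcodes had medians of 1846 UMIs (control), 4030.5 and 3866 UMIs (Dox), with a highest value of 54903, and medians of 754, 1370.5 and 1445 genes. The reference had medians of 1501, 50065 and 39701 UMIs. Depth therefore moved with the comparison in the Dox libraries, and it was also run on barcodes of at least 3000 UMIs and on barcodes thinned to 1000 UMIs each. No hemoglobin UMI was found in any nucleus-poor barcode, hemoglobin being the main message of red blood cells, which lose their nucleus in mammals.

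As a share of all barcodes with at least 200 genes, the nucleus-poor barcodes made up 6.61% of the control library (25 of 378, 95% Clopper-Pearson interval 4.33 to 9.61%). The shares were 13.97% (96 of 687, 11.5 to 16.8%) in Dox replicate 1 and 6.91% (71 of 1028, 5.43 to 8.63%) in Dox replicate 2. Thinned to 1000 UMIs, which left 282, 596 and 908 barcodes, the shares were 6.74%, 15.9% and 8.70%. Dox replicate 1 stood above both other libraries, and the control value lay close to Dox replicate 2. The shares were not tested over libraries, and the intervals cover counting error only.

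Epcam was detected in 106 of the 192 nucleus-poor barcodes: 14 of 25 in the control library and 54 of 96 and 38 of 71 in the Dox libraries had at least 1 UMI. When all barcodes with at most 20% mitochondrial UMIs were clustered without Malat1 and mitochondrial genes, the 192 fell into 11 of 18 clusters, and 83 of them (43.2%) into a single cluster (2 control, 45 and 36 Dox). Its 25 leading genes held 0 of the fixed cell type markers, and it was left unnamed. A further 12 lay in a cluster with the macrophage markers Lyz2, Ptprc, Tyrobp and Fcer1g among its leading genes. More than 5 UMIs of 10 macrophage markers were found in 4, 5 and 1 of the nucleus-poor barcodes, and in 3, 2 and 6 of the reference barcodes. Summed levels of these markers were 781, 260 and 60.6 CPM in nucleus-poor sums, against 50.2, 15.6 and 22.5 CPM in reference sums, with 7, 10 and 8 of the 10 markers detected. The 8 lymphocyte markers were all at 0 UMIs in nucleus-poor barcodes of each library. Of 14 markers of hair cells, the sensory cells, 1, 2 and 1 had UMIs in the nucleus-poor sums (Espn in each library, and Calb2 in Dox 1), with summed levels of 143.5, 106.7 and 158.4 CPM against 236, 171 and 145.5 CPM in the reference. Defining hair cell genes such as Pou4f3 and Otof were at 0.

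Which mRNAs were enriched or lost was tested on UMIs summed per library over nucleus-poor and over reference barcodes, with the library as a block, in edgeR. The genes that the rules use were left out of the counts. Selecting barcodes on Malat1, mitochondrial RNA and mitotic genes, and the reference on Epcam, also selects for what goes with them. The tests therefore describe these chosen barcodes and are no independent evidence that the barcodes form a kind. Of 8880 genes tested, 766 (8.63%) were higher and 1335 (15%) were lower in nucleus-poor barcodes at an adjusted p of 0.05 or less, 23.7% in all, with a median log2 difference of -0.14 over all tested genes. Without any barcode copy shared between libraries 559 were higher and 825 lower, and without the shallower copies 770 and 1354. With Epcam-positive nucleus-poor barcodes only, 493 were higher and 1059 lower.

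These counts depend on both Dox libraries and on the scaling. Without Dox replicate 1 or without Dox replicate 2 the edgeR test called 0 genes, although 1686 and 1692 genes had an unadjusted p of 0.05 or less. Without the control library, with as many residual degrees of freedom, 693 were higher and 821 lower. Under total count scaling 337 were higher and 2500 lower, so that higher genes were 11.9% of the calls in place of 36.5%, and the median over all genes moved to -0.48. Differences below are on the TMM scale and are to be read against that shift.

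RNAs kept in the nucleus had the lowest median of the lists compared (-6.27), and they share their place in the cell with Malat1, which the rule used. Of 16 nuclear long noncoding RNAs 5 passed the filter on low counts and 3 of these fell, against 15% lower over all genes. The other members tested, Tug1 and Airn, were not called, Airn with a log2 difference of 0.03 (adjusted p = 0.945 in edgeR). Of all 93 long noncoding or unclassified genes tested, 21.5% were higher and 24.7% lower, with a median of 0.15. Xist, the RNA that coats the inactive X chromosome, was at 0, 7.24 and 11.8 CPM in the nucleus-poor sums (control, Dox 1, Dox 2), against 232, 646 and 721 CPM in the reference. It fell by 6.27 on the log2 scale (SE 0.29, adjusted p = 5.85e-06 in edgeR). Kcnq1ot1, which silences an imprinted domain, was at 0, 3.62 and 2.94 CPM, 3 UMIs in all, against 214, 408 and 419 CPM. Its pooled ratio was 165-fold lower with a counting interval of 56.5 to 801. Neat1, the scaffold of nuclear paraspeckles, was at 42.7, 0 and 5.89 CPM against 352, 440 and 444 CPM (log2 difference -6.30, SE 0.67, adjusted p = 0.000385). Each nucleus-poor value of these 3 RNAs lay below every reference value, which naming by smallest p favours. The share of all genes separated in this way was not counted. Tug1, which is found in nucleus and cytoplasm, stood at 14.2, 38.0 and 26.5 CPM against 40.5, 42.9 and 38.0 CPM and did not pass (-0.39, SE 0.29, adjusted p = 0.354). Tsix, which overlaps Xist on the opposite strand, was at 0 UMIs in all nucleus-poor sums, and whether counting used strand is not stated, so Xist, Tsix and Kcnq1ot1 cannot be separated from genes that overlap them.

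Messages of splicing and nuclear speckle proteins followed the same direction. Of 27 tested, 20 were lower and 0 higher, against 15% lower over all genes, and their median log2 difference was -1.40. Rsrp1, an arginine- and serine-rich splicing protein, was at 14.2, 10.9 and 5.89 CPM against 171, 117 and 102 CPM in the reference (-3.64, SE 0.31, adjusted p = 0.000196). Rbm25, a splicing regulator, was at 14.2, 63.4 and 64.8 CPM against 187, 286 and 319 CPM and fell by 2.32 (SE 0.22). Ccnl1, a cyclin of splicing kinases, fell by 2.47 (SE 0.25), and Clk1, a kinase of splicing factors, fell by 2.49 (SE 0.30). For these 4 genes, also named by smallest p, all nucleus-poor values lay below all reference values, and the share over all genes was not counted. The median of the list was -1.25 against a reference without mitotic barcodes and -1.22 after thinning.

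**Figure D2:**
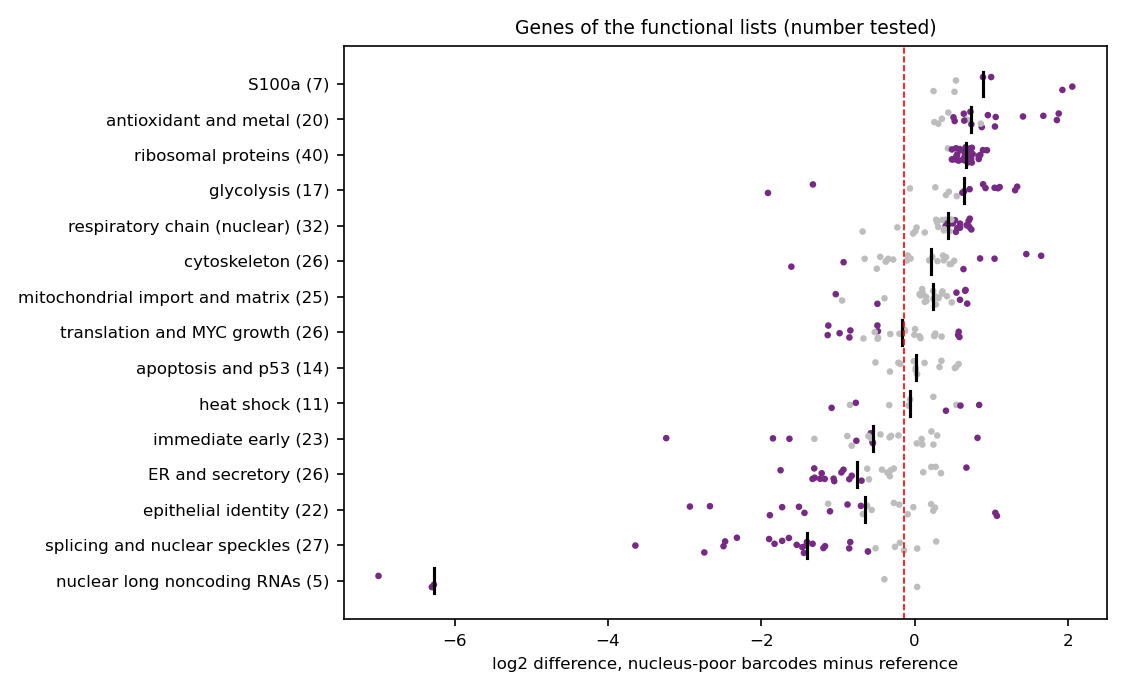
Each point is 1 tested gene of a list, placed by its log2 difference between nucleus-poor and reference barcodes; purple points passed an adjusted p of 0.05 and grey points did not, black bars are list medians and the dashed red line is the median of all 8880 genes. Nuclear and splicing RNAs lie to the left (medians -6.27 and -1.40), and ribosomal protein, antioxidant and S100a genes to the right (0.67, 0.73 and 0.89).

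Short transcripts were enriched and long ones lost. Protein-coding genes called higher had a median spliced length of 1291 bases and those called lower 4634.5 bases, against 3037 over the 8776 protein-coding genes with a matched transcript. Of 588 genes under 1 kb, 42.0% were higher and 3.91% lower, with a median log2 difference of 0.59. Of 1210 genes over 6 kb, 0.826% were higher and 36.5% lower, with a median of -0.80. The classes between fell in order, with medians of 0.27 (1 to 2 kb), -0.06 (2 to 3 kb), -0.24 (3 to 4 kb) and -0.44 (4 to 6 kb). The gap between the shortest and longest class was 1.39 in the fit. It was also taken on CPM + 5, against reference barcodes of at least 1000 CPM of Malat1. There it was 1.69 in the control library and 1.14 and 1.16 in the Dox libraries. By Spearman's rho with spliced length on the same ratios the control was the weakest, at -0.32 against -0.46 and -0.41. The control sum held 62727 UMIs, against 693345 and 429349 with Dox, and the part of depth in these gaps was not tested.

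The order by length was present at each level of abundance: among genes in the lowest, middle and highest tertile, genes under 1 kb had medians of 0.74, 0.57 and 0.58 and genes over 6 kb -0.80, -0.80 and -0.81. It was also present at matched gene span, the distance from first to last exon with introns. In genes spanning 10 to 30 kb the median was 0.25 for transcripts of 1 to 2 kb and -0.58 for those over 6 kb, and in genes spanning over 100 kb it was 0.39 and -0.93. Coding length and exon number went the same way, with medians of 600 bases and 5 exons in higher genes and 2208 bases and 14 exons in lower genes. Across genes, which are not independent replicates and share these libraries, Spearman's rho with the log2 difference was -0.48 for spliced length, -0.50 for coding length, -0.26 for noncoding length, -0.33 for gene span and 0.10 for GC content. The gap between classes held at 1.46 with a reference without mitotic barcodes, 1.42 at 3000 UMIs or more and 1.16 after thinning.

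The length order was set beside 3 other kinds of barcode, as medians of log2 ratios of CPM + 5 to reference barcodes of at least 1000 CPM of Malat1 (81, 181 and 518). Nucleus-poor barcodes with mitotic mRNAs (42 and 49 in the Dox libraries) went from 0.26 and 0.21 under 1 kb to -0.89 and -0.84 over 6 kb. Barcodes with little Malat1 but 1 to 20% mitochondrial UMIs (31, 64 and 40) went from 0.10, 0.06 and 0.24 to -1.27, -0.74 and -0.81. Barcodes with under 1% mitochondrial UMIs that did hold Malat1 (30, 33 and 53) went from -0.05, -0.03 and -0.25 to 0.02, -0.23 and 0.03. The order by length was thus seen in the groups with little Malat1 and was not seen in the control and Dox 2 values of the group with Malat1, with a smaller step down in Dox 1. In the control library the sums with little Malat1 held 62727 and 84379 UMIs, and the sum with Malat1 held 398513. With Dox the sums with Malat1 held 185292 and 323455 UMIs, below the nucleus-poor sums of 693345 and 429349. The difference between groups and the part of depth in it were not tested.

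**Figure D3:**
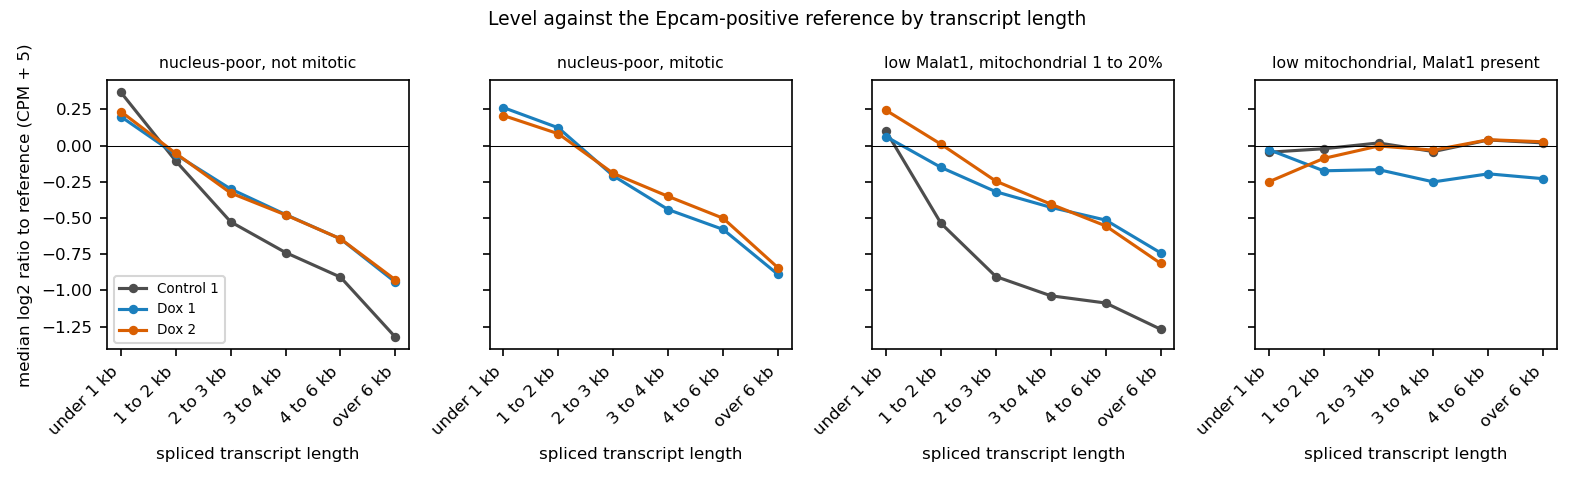
Median log2 ratio to reference barcodes of at least 1000 CPM of Malat1 (CPM + 5) of protein-coding genes in 6 classes of spliced transcript length, 1 line per library, for 4 kinds of barcode; the control library is not drawn for mitotic nucleus-poor barcodes, of which it had 2. The lines fall from left to right where Malat1 is low, and end at 0.02, -0.23 and 0.03 where Malat1 is present. In nucleus-poor barcodes they go from 0.37 to -1.32 in the control, from 0.20 to -0.94 in Dox 1 and from 0.24 to -0.93 in Dox 2. The control nucleus-poor sum was the shallowest of these, with 62727 UMIs.

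Ribosomal protein messages, which are short and abundant in the cytosol, were higher as a group. Of 40 tested 39 were higher and 0 lower, against 8.63% higher over all genes, with a median of 0.67. Rpl24, a protein of the large subunit, was at 2777, 6056 and 6065 CPM in nucleus-poor sums against 1484, 3270 and 3288 CPM in the reference (log2 difference 0.89, SE 0.10, adjusted p = 0.000825). Rpl27 was higher by 0.94 (SE 0.11) and Rplp1, of the ribosomal stalk, by 0.76 (SE 0.09). For these 3 genes the nucleus-poor value was the higher within each library, where 54.5% of all tested genes held 1 direction. For Rpl24 the control nucleus-poor level lay below the Dox reference. Relative to the median of genes in the same length class, the list's median was 0.19, and after thinning of barcodes it was 0.21. Ribosomal protein genes have processed copies in the genome, between which reads may be split.

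Of 32 nuclear-encoded respiratory chain genes 15 were higher and 0 lower (median 0.43), against 8.63% and 15% over all genes. Among them was Uqcrb of complex III at 570, 465 and 442 CPM against 323, 283 and 270 CPM (0.74, SE 0.15, adjusted p = 0.00659). Cox6c of complex IV was higher by 0.70 (SE 0.14) and Atp5d of the ATP synthase by 0.68 (SE 0.13). Their median did not stand above that of genes of the same length (-0.03 after subtraction), and 16 of 32 lay below it. Of 25 genes of import and the matrix 5 were higher and 2 lower, against the same shares over all genes. Their median of 0.24 turned to -0.05 with total count scaling and was 0.00 after subtraction of the length-class median. The carrier Slc25a4 was higher by 0.69 (SE 0.14) and the outer membrane channel Vdac2 by 0.66 (SE 0.16, and -0.02 after thinning). Low mitochondrially encoded RNA was set by the rule, and 0 of these 32 respiratory chain genes were lower beside it.

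Of 17 glycolysis genes 10 were higher and 2 lower, with a median of 0.65, against 8.63% and 15% over all genes. Hk1, Hk2, Pfkl, Pfkp and Ldha did not pass. Gapdh was at 5953, 4074 and 4583 CPM against 2239, 2222 and 2305 CPM (1.09, SE 0.13, adjusted p = 0.000853). Pgk1 was higher by 1.04 (SE 0.12), Aldoa by 1.11 (SE 0.14) and Eno1 by 0.93 (SE 0.13). The 2 that fell were Slc2a1, the glucose transporter of the plasma membrane (-1.33, adjusted p = 0.0147), and Slc16a3, a lactate carrier (-1.91, adjusted p = 0.00472). Relative to genes of its length the glycolysis list had a higher median (0.78 after subtraction, with 3 of 17 below).

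Antioxidant and metal-handling genes were higher in 14 of 20, with 0 lower and a median of 0.73, against 8.63% higher and 15% lower over all genes. Gstm1, a glutathione transferase, was at 228, 1039 and 1016 CPM against 51.8, 292 and 286 CPM (1.88, SE 0.15, adjusted p = 0.000210). In the control library 87.5% of its UMIs came from 1 barcode. Gpx2, a glutathione peroxidase of epithelia, was at 13558, 3146 and 3225 CPM against 2350, 1470 and 1194 CPM (1.68, SE 0.23, adjusted p = 0.00136) and was found in 16 of 25, 77 of 96 and 62 of 71 nucleus-poor barcodes. Gsta4 was higher by 1.41 (SE 0.20) and Ftl1, the ferritin light chain, by 0.96 (SE 0.11). For Gpx2, named by smallest p, the lowest nucleus-poor value lay above the highest reference value, and the share over all genes was not counted.

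Messages of the ER and the secretory path were lower in most cases called. Of 26 tested 14 were lower and 1 higher, against 15% and 8.63% over all genes, with a median of -0.76. Of the 26, 24 lay below the median of genes of their length. Hspa5, the main ER chaperone, was at 242, 277 and 427 CPM in nucleus-poor sums against 963, 778 and 723 CPM (-1.31, SE 0.21, adjusted p = 0.00256). Hsp90b1, the ER form of Hsp90, fell by 1.30 (SE 0.16), Calr, a calcium-binding chaperone, by 1.21 (SE 0.18) and Rpn1, of the glycosylation complex, by 1.33 (SE 0.22). In all 4, named by smallest p, every nucleus-poor value lay below every reference value, and the share over all genes was not counted. Sec61a1, the pore of the translocon, was the lowest called member at -1.75, while Sec61g, its small subunit, was the single member called higher at 0.68.

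Of 22 epithelial identity genes tested 9 were lower and 2 higher, against 15% and 8.63% over all genes, with a median of -0.65. Every reference barcode held Epcam by the rule, while 106 of 192 nucleus-poor barcodes did. The rule thus touches genes that go with Epcam, and this list is given as a description. Cldn4, a tight junction protein, was at 42.7, 29.0 and 47.1 CPM against 421, 202 and 233 CPM (-2.67, SE 0.24, adjusted p = 0.000281). Cdh1, E-cadherin of adherens junctions, was at 99.7, 48.9 and 29.4 CPM against 266, 138 and 146 CPM (-1.73, SE 0.24), and St14, a membrane protease, fell by 1.89 (SE 0.32). Among the others that fell were Marveld2, Perp, Spint1, Cldn7 and Cldn3. The higher pair was Krt19, a keratin (1.05), and Rab25, a vesicle GTPase, at 199, 304 and 250 CPM against 69.2, 144 and 137 CPM (1.07, SE 0.19, adjusted p = 0.00388). Epcam itself chose the reference, so its own level is no result: it was at 1116, 470 and 356 CPM in nucleus-poor sums against 2401, 1048 and 1050.4 CPM. Krt7, Krt8, Krt18, Cldn6, Cldn9 and Spint2 did not pass. With Epcam-positive nucleus-poor barcodes alone the list's median was -0.53.

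Among cytoskeletal genes 5 of 26 were higher and 2 lower, against 8.63% and 15% over all genes, with a median of 0.21 that turned to -0.11 with total count scaling. Tmsb4x, which binds actin monomers, was at 4956, 1976 and 2024 CPM against 1817, 657 and 804 CPM (1.46, SE 0.12, adjusted p = 0.000199). Vim, an intermediate filament protein, was higher by 1.65 (SE 0.22) and Capg, an actin capping protein, by 1.04 (SE 0.18). Tmsb4x is also high in macrophages, whose markers were higher in nucleus-poor sums as given above. In a fit without barcodes of over 5 macrophage marker UMIs, 82 of 83 named genes kept their direction and call. The part of macrophages in the level of Tmsb4x was not tested apart from that fit. The actin cross-linkers Actn1 (-1.61) and Actn4 (-0.93) were lower.

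Immediate early genes, whose short-lived mRNAs appear when cells are dissociated, were lower in 7 of 23 and higher in 1, against 15% and 8.63% over all genes. Their median was -0.54, and 15 were not called. Among those not called were Fos (0.10), Junb (0.22), Jund (-0.21) and Atf3 (-0.57). Cyr61 was at 0, 32.6 and 14.7 CPM against 486, 158 and 246 CPM (-3.24, SE 0.40, adjusted p = 0.000999). Klf6 was at 228, 81.5 and 150.2 CPM against 558, 381 and 518 CPM (-1.85, SE 0.20), and Nr4a1, a nuclear receptor, fell by 1.63 (SE 0.32). Btg1, an antiproliferative gene, was the member that rose (0.82, SE 0.21). Of 11 heat shock genes 3 were higher and 2 lower, against 8.63% and 15% over all genes, with a median of -0.06 near that of all genes. Among apoptosis and p53 target genes 0 of 14 were called by edgeR, against 23.7% of all genes, and their median was 0.02.

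The genes proposed as markers of these barcodes were chosen with these data in view, so their levels are a description. S100a1 (chromosome 3, 90511034 to 90514392 in GRCm38), a calcium-binding protein of cochlear supporting cells and neurons, was at 9841, 4190 and 4330 CPM against 3264, 1492 and 662 CPM in the reference, a log2 difference of 1.93 (SE 0.21). Cited1 (chromosome X, 102247381 to 102252181), a transcription coactivator, was at 442, 1283 and 860 CPM against 261, 483 and 390 CPM (1.16, SE 0.16). Ndrg2 (chromosome 14, 51905271 to 51914158) was at 185, 433 and 256 CPM against 156, 174 and 118 CPM (1.04, SE 0.20). Alox15 (chromosome 11, 70344152 to 70352031), a lipoxygenase, was at 14.2, 174 and 221 CPM against 8.71, 108 and 81.6 CPM (1.04, SE 0.22), with 1 UMI in the control sum. All 4 were higher in the nucleus-poor sum of each library. Of all tested genes 54.5% held 1 direction in the 3 libraries. They did not mark every barcode: S100a1 was found in 20 of 25, 79 of 96 and 58 of 71, Cited1 in 9, 68 and 45, Ndrg2 in 9, 53 and 37 and Alox15 in 1, 35 and 19. S100a1 (677 bases) and Cited1 (1090 bases) have spliced transcripts below the median length, and so do Ndrg2 (2103) and Alox15 (2409). In the S100a family 4 of 7 genes were higher and 0 lower (median 0.89), against 8.63% and 15% over all genes. S100a13, the neighbour of S100a1 on the opposite strand, was at 5725, 1696 and 1423 CPM against 1041, 821 and 224 CPM (2.06, SE 0.27, adjusted p = 0.00129).

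**Figure D4:**
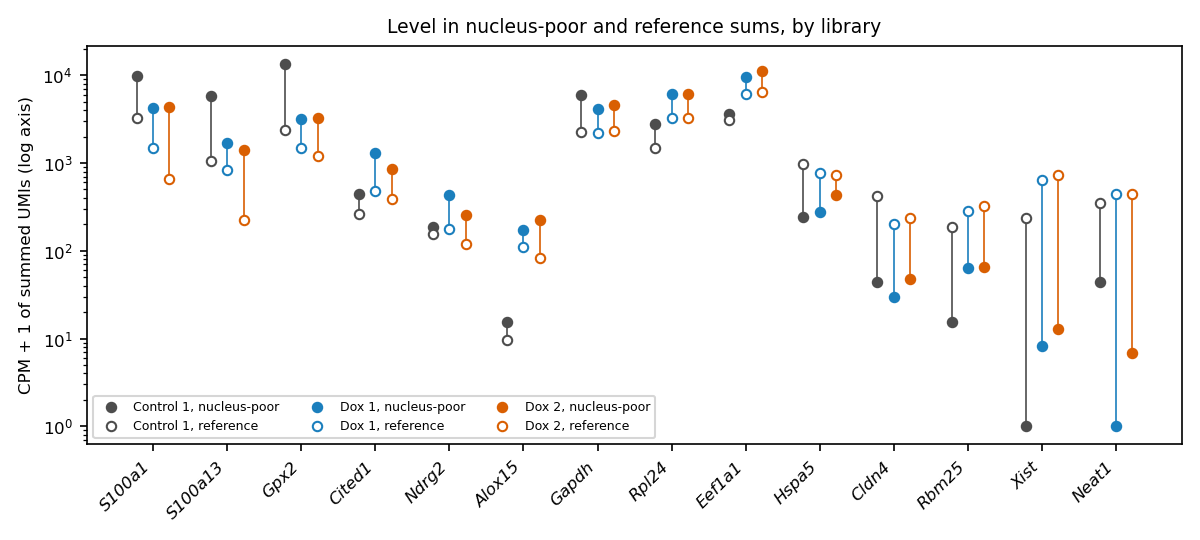
CPM + 1 (log axis) of 14 genes in nucleus-poor (filled) and reference (open) sums, joined per library. The first 9 genes are higher in the nucleus-poor sum in every library, such as S100a1 with 9841 against 3264 CPM in the control. The last 5 are lower, such as Xist with 11.8 against 721 CPM in Dox 2. Of all tested genes 54.5% held 1 direction in the 3 libraries.

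Levels of cell type markers also differed between the groups, and their part in the other results was not tested. Epcam was required of the reference only, which touches these markers too. Markers of Reissner's membrane, the epithelium that roofs the cochlear duct, were lower in 3 of 4 tested, against 15% over all genes. Among them was Vmo1 at 798, 141 and 106 CPM against 2697, 329 and 562 CPM (-1.76, SE 0.21, adjusted p = 0.000853). All 3 tested markers of marginal cells of the stria vascularis were lower, such as Lmx1a with 2 UMIs in the nucleus-poor sums (pooled ratio 11.7-fold lower, counting interval 3.22 to 96.6). Of 10 supporting cell markers 2 were higher and 2 lower, near the shares over all genes (8.63% and 15%). Fabp7, a fatty acid binding protein of these cells, was higher by 1.79 (SE 0.26), yet was at -0.07 among Epcam-positive nucleus-poor barcodes against a reference without mitotic barcodes. Hes5, a Notch target, was at 0, 99.5 and 23.6 CPM against 0, 29.6 and 10.6 CPM. Its UMIs came from 7 and 2 nucleus-poor barcodes of Dox 1 and Dox 2, with 49.1% and 62.5% from 1 barcode. Slc1a3, a glutamate transporter, fell by 2.60 (SE 0.43).

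Of the 12 largest rises S100a1 and S100a13, given above, were found in most nucleus-poor barcodes of the control and of Dox 1 and Dox 2, and several others came from few barcodes. Saa3, an acute phase protein, was at 741, 16.3 and 23.6 CPM against under 2 CPM in each reference sum (5.69, SE 0.79, adjusted p = 0.0015), but its UMIs came from 2, 1 and 1 barcodes. Lyz2, the lysozyme of macrophages, was at 271, 136 and 32.4 CPM against 2.05, 3.68 and 4.34 CPM, from 5, 4 and 1 barcodes, and C1qc, of complement, from 2, 5 and 2. Sprr1a, of stressed epithelia, came from 2, 2 and 3 barcodes and Apoe, a lipid carrier (2.09, SE 0.32), from 6, 17 and 14, and Apoe was at -0.09 with Epcam-positive nucleus-poor barcodes alone. Lst1 (3.49), Trf (2.31), Rlbp1 (2.16) and Pdlim4 (2.08) rested on 5 or fewer barcodes per library. Cmbl, a hydrolase, was more widely spread: at 71.2, 72.4 and 94.3 CPM against 14.3, 26.6 and 18.4 CPM (1.92, SE 0.28, adjusted p = 0.00194), it was found in 4, 23 and 19 barcodes. Without the barcodes rich in macrophage markers 713 genes were higher and 1321 lower.

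The largest falls were genes with no UMI at all in nucleus-poor barcodes, for which a fold is a bound at 3 counts over the group. Lrp2, a giant endocytic receptor with a transcript of 15460 bases, was at 0 in each library against 328, 49.8 and 89.3 CPM and was at least 36.3-fold lower. Kif20b, a kinesin of cell division, was at least 19.4-fold lower, and the others were at least 4.88-fold lower, namely Cacna2d1, Tsix, Depdc1a, Lncpint, Gas2l3, Iqgap3, Crybb3, Il17ra, Flvcr1 and Acp2. Genes at 0 in every nucleus-poor sum passed the filter on low counts only through the reference, so their direction was fixed beforehand and they are given as a description. Kif20b, Depdc1a, Gas2l3 and Iqgap3 are also genes of cell division, which the rule on mitotic genes touches.

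Cell cycle messages followed the rule, since mitotic genes chose the members and 463 of the 849 reference barcodes held at least 2 of the 5 mitotic genes. All 20 other mitotic genes and 10 of 19 S phase genes were lower, with medians of -3.52 and -1.23, and no test is read from them. Against a reference of at most 1 mitotic gene the medians were 0.55 and 0.61. In the same way the list of translation and MYC-driven growth genes had a median of -0.17 that turned to 0.21. Of its 26 genes 3 were higher and 7 lower, against 8.63% and 15% over all genes. Nop56 and Nop58, proteins of nucleolar RNA particles, fell by 1.13 (SE 0.27) and 0.84 (SE 0.22) with the whole reference, and Eef1a1, the elongation factor that brings tRNA to the ribosome, was higher by 0.57 (SE 0.12). With the reference of at most 1 mitotic gene 685 genes were higher and 1206 lower in all, and 489 of the 766 and 948 of the 1335 genes called with the whole reference were called again.

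Dox was then compared with the control within the nucleus-poor barcodes. With 3 sums the fit kept 1 residual degree of freedom. Its p-values take the spread from the pair of Dox libraries and assume the same spread for the single control. Of 5578 genes tested 204 (3.66%) were higher with Dox and 142 (2.55%) lower, 6.2% in all. With total count scaling 123 were higher and 232 lower, and DESeq2 called 113 and 54. The control sum held 62727 UMIs from 25 barcodes against 693345 and 429349 with Dox, and 1 barcode gave 17.2% of it. Fewer than 4 control UMIs were behind 2996 of the tested genes. Of all tested genes 622 had 0 control UMIs and passed the filter on low counts only through the Dox libraries. Such genes could only rise, and 35 of the 204 higher genes were among them, so the share of 3.66% used below holds them too. The barcodes of the groups also lay in different clusters. Of the 25 control barcodes 2 lay in the cluster that held the most nucleus-poor barcodes, against 45 of 96 and 36 of 71 with Dox, and its leading genes include Gpx2, S100a1, Rps14, Rplp1 and Rpl3. Another 7 control barcodes, against 10 and 5 with Dox, lay in a cluster led by S100a1 and S100a13, with Gpx2 among its leading genes. The 25 leading genes of that cluster also held the supporting cell markers Sox2, Gjb2 and Rorb. A further 7, against 7 and 2 with Dox, lay in a cluster led by Epyc, with S100a1 and Gpx2 among its leading genes. The cluster with macrophage markers held 4, against 6 and 2 with Dox. The part of this in the results with Dox was not tested.

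Ribosomal protein messages were all higher with Dox: 40 of 40, against 3.66% over all genes. Their median was 1.49 (1.11 with total count scaling and 1.21 after thinning). The reference sums of Rpl24, given above, were also higher in both Dox libraries than in the control. No gene of this list was called in the interaction given below. Rpl13, a protein of the large subunit, was at 3146 CPM in the control and 10134 and 10477 CPM with Dox (1.71, SE 0.12, adjusted p = 2.51e-12 in edgeR). Of 23 growth genes known as MYC targets 12 were higher and 1 lower, against 3.66% and 2.55% over all genes. Their median was 1.76, or 1.66 with the 2 genes at 0 control UMIs set at their bound. Among the higher, Nop56 had 0 control UMIs, so that its direction was fixed beforehand, and Nop58 had 1. Npm1, a nucleolar chaperone of ribosome assembly, was at 649 against 4835 and 4444 CPM (2.84, SE 0.18), Hspd1, a mitochondrial chaperonin, at 141 against 871 and 873 CPM (2.63, SE 0.36), and Eef1a1 at 3569 against 8826 and 9944 CPM (1.39, SE 0.12). The respiratory chain (2 higher and 1 lower of 32), glycolysis (0 and 1 of 16) and ER lists (0 and 0 of 26) had medians of -0.08, 0.08 and -0.05. These counts stand beside the same shares over all genes.

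Of 12 Notch response genes tested 4 were higher and 0 lower with Dox, against 3.66% and 2.55% over all genes. Their median was 2.30, or 0.96 with genes at 0 control UMIs set at their bound. The 4 include Notch1, whose counts may hold the transgene, and Hey1, which passed the filter on low counts only through the Dox libraries. Hey1, a repressor induced by Notch, was at 0 UMIs in the control and at 146 and 188 CPM with Dox, at least 2.95-fold higher, and was found in 38 of 96 and 32 of 71 barcodes. Nrarp, a feedback inhibitor, had 3 control UMIs and 394 and 276 CPM with Dox (pooled ratio 6.35-fold, counting interval 2.16 to 31.0). Notch1 had 1 control UMI against 266 and 260 CPM (14.4-fold, 2.57 to 572), and Myc had 0 against 69.4 and 66.4 CPM, at least 1.24-fold higher and not past the threshold (adjusted p = 0.063). Counts of Notch1 and Myc may hold transgene and own transcripts, which cannot be told apart here. Ccnd1, the cyclin of the first growth phase, was at 84.6 against 584 and 510 CPM (2.69, SE 0.46).

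The 6 largest rises with Dox by the naming rule all had 0 control UMIs. Such genes, Hey1 among them, passed the filter on low counts only through the Dox libraries, so their direction was fixed beforehand and their values are a description. Tnfaip2 was at 913 and 669 CPM and at least 14.9-fold higher, found in 57 of 96 and 39 of 71 barcodes. Paics, an enzyme of purine synthesis, was at 241 and 287 CPM (at least 4.72-fold) and Alox12e, a lipoxygenase, at 271 and 194 CPM (at least 4.40-fold). S100a8 and S100a9, of neutrophils, also had 0 control UMIs, but 98.5% and 98.9% of their UMIs in Dox 1 came from 1 barcode and all of those in Dox 2. Krt19 had 2 control UMIs against 612 and 494 CPM (15.5-fold, 4.27 to 128). Among the proposed markers Cited1 was higher with Dox (437 against 1172 and 775 CPM, 1.17, SE 0.31, adjusted p = 0.0146) and so was Alox15 (1 control UMI against 159 and 199 CPM). Ndrg2 did not pass (183 against 395 and 231 CPM, adjusted p = 0.405).

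S100a1 was lower with Dox, at 9747 CPM in the control and 3828 and 3902 CPM with Dox (-1.33, SE 0.11, adjusted p = 5.82e-11), and so was S100a13 at 5670 against 1549 and 1282 CPM (-2.00, SE 0.14). Gpx2 stood at 13428 against 2874 and 2907 CPM (-2.22, SE 0.10). The reference sums of S100a1, S100a13 and Gpx2, given above, were also lower in both Dox libraries than in the control. In the interaction given below these 3 genes stood at 0.50, -0.62 and -1.26 and were not called, so their falls are not particular to nucleus-poor barcodes by that test. Fth1, the ferritin heavy chain, was at 18873 against 2895 and 3092 CPM (-2.66, SE 0.10) and Lcn2, an iron-binding defence protein, at 17604 against 1106 and 1702 CPM (-3.66, SE 0.14). Of the control UMIs 41.7% (Fth1) and 63.5% (Lcn2) came from 1 barcode. Without the deepest nucleus-poor barcode of each library these 2 differences were -1.96 and -2.27, while those of Gpx2 and S100a13 were -2.34 and -2.17. Lgals1, a galectin of many cell types, was at 3583 against 69.4 and 66.4 CPM (-5.71, SE 0.21) and was found in 14 of 25 control barcodes. Serpina3n, Saa3, Pf4 and Orm2 were lower by more than 5 on the log2 scale, yet 1 control barcode gave 91.1%, 98.1%, 54.5% and 100% of their UMIs, and Orm2 stood at 6.85 (adjusted p = 0.209) without the deepest barcodes. Of 9 MHC class I and interferon genes 4 were lower and 0 higher, against 2.55% and 3.66% over all genes. Among the lower was Bst2 at 663 against 250 and 234 CPM (-1.45, SE 0.30). Beside this list, the 6 macrophage markers tested had a median of -1.93, with 0 called. Macrophage-rich barcodes were 4 of 25 in the control and 5 of 96 and 1 of 71 with Dox. Their part in this list was not tested. Without those barcodes 189 genes were higher and 123 lower with Dox.

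**Figure D5:**
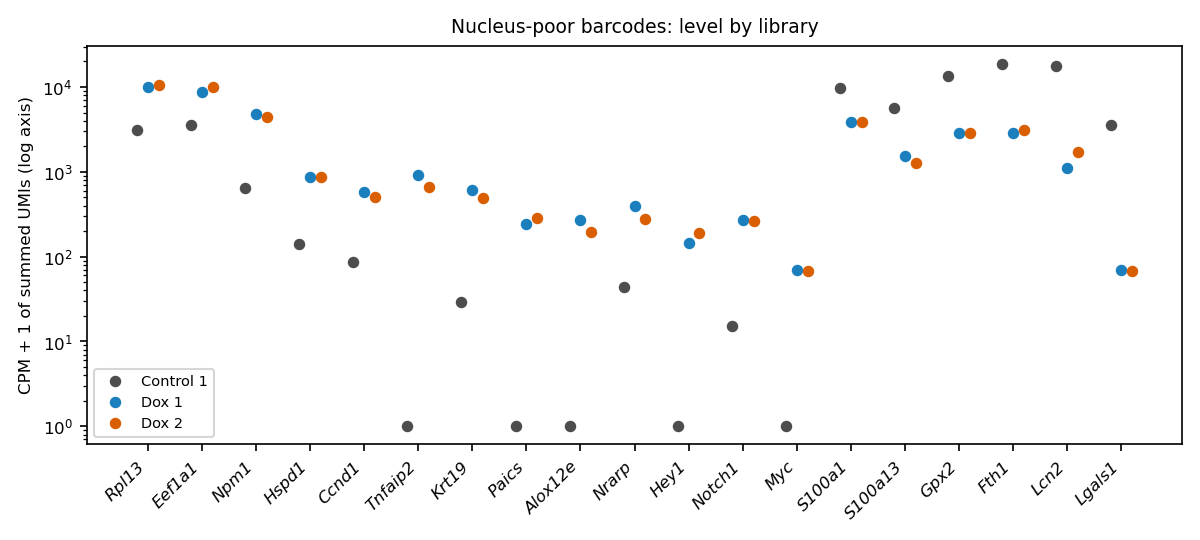
CPM + 1 (log axis) of 19 genes in the nucleus-poor sum of each library, 1 point per library. The first 13 genes lie higher in both Dox libraries than in the control, such as Npm1 at 4835 and 4444 against 649 CPM, and the last 6 lie lower, such as S100a1 at 3828 and 3902 against 9747 CPM.

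Whether the difference between nucleus-poor and reference barcodes itself changed with Dox was tested as an interaction. It was called for 2 of 8880 genes (0.0225%), Lcn2 and Fth1, both lower with Dox (-2.06 and -1.24). Without the deepest nucleus-poor barcode of each library edgeR called 0 genes, with 640 at an unadjusted p of 0.05 or less.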

How the data were processed

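The authors deposited 1 matrix of raw UMI counts per library (10x Genomics 3' kit, version 3.1), with 31053 genes and at least 500 UMIs per barcode. The submitters' processing notes name Cell Ranger 5.0, STAR, Seurat 3.2.2 and the mm10 (GRCm38) build, and the matrix headers give software version 3.1.0. No source states whether introns or strand entered the counting. Library totals were 5436731, 20309102 and 33385927 UMIs.

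Counts were summed per library over nucleus-poor and reference barcodes, without 20 genes that the rules use. The sums were fitted with edgeR 4.0.16 (R 4.3.3), its quasi-likelihood test, TMM scaling, filterByExpr, the library as block where both kinds are compared, and Benjamini-Hochberg adjustment over all genes tested. Nothing says that the libraries were separate cultures beyond pools of 4, so p-values measure the spread between libraries. CPM of tested genes are TMM-scaled within each fit. Pairing comes from sums of the same library. Transcript features came from GENCODE M21, with 8875 of 8880 genes matched by identifier. Doublets were not removed, and no nucleus-poor barcode exceeded the 95th percentile of UMIs in its library. Clusters used scanpy 1.11.5 and leidenalg 0.10.2. The steps were tested on simulated counts.

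Members, lists and tests were chosen with earlier results of these data known. Named genes were the 12 largest rises and falls against the reference and 6 of each with Dox (called genes with 50 UMIs or more and 1 direction in every library, without clone names and pseudogenes), the proposed markers, Notch1 and Myc, up to 4 genes per list by p, and up to 4 called interactions. Genes named beside these (Sec61a1, Sec61g, Slc2a1, Slc16a3, Marveld2, Perp, Spint1, Cldn7, Cldn3, Actn1, Hk1, Hk2, Pfkl, Pfkp, Ldha, Krt7, Krt8, Krt18, Cldn6, Cldn9, Spint2, Airn, Fos, Junb, Jund and Atf3) were chosen after their values were seen. Alternatives were other scalings, filters, thresholds and tools, and left-out libraries. DESeq2 1.42.0 was 1 of them. Some genes that the rule names are not reported here.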

Additional observations from a re-analysis of the deposited data

Results flagged for a closer look

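The difference between nucleus-poor and reference barcodes differed between Dox and control for 2 of 8880 genes (0.0225%) by the interaction term of edgeR, while 546 genes had an unadjusted p of 0.05 or less. Lcn2 (chromosome 2, 32384633 to 32388252 in GRCm38) was at 17773 CPM in control nucleus-poor barcodes against 10959 CPM in the control reference. With Dox it was at 1211 and 1888 CPM against 2950 and 5156 CPM, and the interaction was -2.06 (SE 0.09, adjusted p = 0.00103). Fth1 was at 19055 against 5137 CPM in the control and at 3169 and 3432 against 1871 and 2363 CPM with Dox, with an interaction of -1.24 (SE 0.11, adjusted p = 0.0421). Much of the control count of both genes came from 1 barcode, with the shares given above. Without the deepest nucleus-poor barcode of each library the values were -0.56 (adjusted p = 0.355) and -0.43 (adjusted p = 0.568), and 0 genes were called, with 640 at an unadjusted p of 0.05 or less.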

How the results depend on the processing

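Against the reference, genes higher and lower numbered 337 and 2500 with total count scaling, 446 and 679 with DESeq2, 55 and 136 after thinning to 1000 UMIs (with fewer genes tested), and 318 and 773 with Epcam-positive nucleus-poor barcodes and a reference of at most 1 mitotic gene. Higher genes were 420 at 3000 UMIs or more and 493 with Epcam-positive nucleus-poor barcodes, and lower genes were 825 without any shared barcode. Leaving out 1 library gave 0 to 693 higher and 0 to 821 lower. Without the replicate block of library, 19 were higher and 288 lower. No paired analysis was possible between Dox and control because these groups share fewer than 2 replicate numbers. Directions turned for Apoe (-0.092 with Epcam-positive nucleus-poor barcodes, -0.45 with the nonmitotic reference too), Vdac2 (-0.023 thinned), Hspb1 (0.008 without shared barcodes), Mki67 (0.76), Mcm6 (0.62, and 0.68 with all nucleus-poor barcodes) and Fabp7 (-0.069), the last 3 with Epcam-positive nucleus-poor barcodes and the nonmitotic reference. Of 2273 values of 90 named called genes 1929 kept direction and call and 336 lost the call. With Dox, higher and lower genes numbered 123 and 232 with total count scaling, 113 and 54 with DESeq2 and 114 and 65 thinned, and 70 were lower at 3000 UMIs or more. Orm2 turned to 6.85 without the deepest barcodes. Interactions called (higher and lower) were 1 and 7 with total count scaling, 3 and 7 with DESeq2, 36 and 15 with edgeR's legacy fit, 28 and 12 at 500 CPM of Malat1, 1 and 6 at 2000 CPM, 4 and 7 at 0.5% mitochondrial UMIs, 11 and 7 at 500 genes, 8 and 6 at 3000 UMIs, 2 and 14 thinned, 10 and 10 without barcodes above the 95th percentile of UMIs, 1 and 5 without shallower copies, 58 and 51 without all copies, and 14 and 7 without macrophage-rich barcodes. Lower interactions were 1 with no filter, 1 with 0 mitotic genes and 0 without the deepest barcodes. Shares were 2.37%, 10.9% and 5.02% at 3000 UMIs, 9.90% in Dox 1 at 0.5% mitochondrial UMIs, 10.3% and 5.25% in the Dox libraries with 0 mitotic genes, and 8.70% in Dox 2 thinned. The cause of these changes was not tested. The legacy fit, the left-out shared, macrophage-rich and deepest barcodes, and the joint Epcam and nonmitotic setting were chosen after seeing the data.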
